A study of Mus musculus with 9 samples.

Results

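The mitochondrial genome of the mouse carries 37 genes, and all of them were measured here in a pancreatic cancer line and its integrin knockout. They were taken as every gene whose GENCODE M21 symbol starts with mt- in both count tables, which gave 37 of 49671 genes. They are 13 mRNA genes, 2 rRNA genes and 22 tRNA genes, all on the mitochondrial chromosome (chrM, GRCm38). RNA was measured by bulk sequencing of poly(A) RNA in 9 libraries of 4 groups. KPCWT (WT) is a mouse pancreatic cancer line, and KPC49bKO (KO) is its counterpart without CD49b, the integrin alpha 2 chain encoded by Itga2. Cells were grown in DMEM with fetal bovine serum and harvested before they were confluent (2 WT and 2 KO cultures), or were implanted under the flank skin of C57BL/6 mice, and the excised tumours were dissociated with enzymes (3 WT and 2 KO tumours). Each genotype is 1 line, so a difference between KO and WT is a difference between these lines. A dissociated tumour also holds host cells. The labels give culture and tumour as the batch as well, so setting and batch cannot be told apart. The KO tumours are numbered 1 and 3 as in the data columns.

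Mitochondrial DNA is transcribed from both strands into long precursor RNAs. Most mRNAs and both rRNAs are flanked by tRNAs, and cutting the tRNAs out of the precursor frees them. The mRNAs encode core subunits of the respiratory chain and of the ATP synthase, the rRNAs form the mitochondrial ribosome, and the tRNAs serve translation inside the organelle. All proteins for transcription, processing and translation of this RNA, and most respiratory subunits, are encoded in the nucleus. Of the 37 genes, 9 lie on the minus strand, mt-Nd6 and 8 tRNA genes, and 14 tRNA genes lie on the plus strand.

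Total counts per library ran from 16032912 to 21247023. Itga2, the targeted gene, had 150 and 110 CPM (CPM, counts per 1000000 counts of the library) in WT cultures, 81.7 and 82.0 CPM in KO cultures, 142, 168 and 164 CPM in WT tumours, and 47.6 and 72.9 CPM in KO tumours. It was lower in KO in both settings, by a log2 fold change of -0.64 in culture (SE 0.17, edgeR adjusted p = 0.0135) and -1.32 in tumours (SE 0.18, edgeR adjusted p = 0.00602). Where in the gene the knockout lies is not stated, so its remaining transcript does not test the labels. WT tumours 1 and 2 differed least of all replicate pairs, with a chi-square per gene of 6.00, against 23.0 to 39.2 in the other pairs. They were counted as separate samples. The main counts of calls in tumours are also given with WT tumour 1 or WT tumour 2 left out. No fit left out both. The labels call the replicates biological and name no animal or passage, so p-values measure the spread between these samples.

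A stretch of the mitochondrial genome has a close copy in the nuclear genome, and the sequences show how far reads from either can be told apart. The annotation holds 7 pseudogenes in a row at chr1:24611535-24616197, minus strand. They match parts of mitochondrial DNA between bases 6394 and 11042, from the end of mt-Co1 to the middle of mt-Nd4, in the same order. Base 6394 was set as the base after the last difference of Gm29216 from mt-Co1. The sequence between the pseudogenes was not compared. From the start of mt-Co2 to that of mt-Nd4l there are 2864 bases in mitochondrial DNA and 2865 in the copies. Gm28661 equals mt-Co2 (chrM:7013-7696) at 681 of 681 bases compared, Gm10925 equals mt-Atp6 at 678 of 678, Gm28437 equals mt-Co3 at 783 of 783, Gm10222 equals mt-Nd4l at 294 of 294, and Gm28439 equals the first 876 bases of mt-Nd4. The first 90 bases of mt-Co2, an electron-accepting core subunit of complex IV, and of its copy are shown as an example of a pair with no difference.
mt-Co2: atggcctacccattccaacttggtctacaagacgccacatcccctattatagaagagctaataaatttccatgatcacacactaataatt
Gm28661: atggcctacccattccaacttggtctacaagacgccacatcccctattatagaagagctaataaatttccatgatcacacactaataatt
Gm28438 differs from mt-Nd3, a membrane subunit of complex I, by 1 substitution in 345 bases, T3C, counted from 1 at the first base of mt-Nd3. The capital marks it.
mt-Nd3: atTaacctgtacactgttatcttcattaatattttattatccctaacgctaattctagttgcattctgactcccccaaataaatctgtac
Gm28438: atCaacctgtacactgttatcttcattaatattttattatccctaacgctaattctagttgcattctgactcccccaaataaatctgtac
Gm29216 covers the end of mt-Co1, the catalytic subunit of complex IV, and is shown because its differences all lie close to its first base. It differs at 6 of 492 bases (T1056A, C1057T, A1059G, A1060G, C1062A and A1066T, counted from the first base of mt-Co1). The lines start at base 1054 of mt-Co1 and at base 1 of Gm29216, with the differences in capitals.
mt-Co1: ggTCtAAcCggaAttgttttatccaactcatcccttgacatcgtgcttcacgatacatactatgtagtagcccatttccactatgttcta
Gm29216: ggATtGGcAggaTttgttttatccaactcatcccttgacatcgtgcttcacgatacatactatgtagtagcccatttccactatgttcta

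The read length is not stated in the labels, so windows of 150 bases were taken as an example, and 99.44% of the windows of mt-Co2 occur unchanged in a nuclear transcript of the annotation. The share was 99.44% for mt-Atp6, 99.84% for mt-Co3, 96.98% for mt-Nd3, 97.97% for mt-Nd4l, 59.15% for mt-Nd4 and 23.64% for mt-Co1. No window of the 6 other mRNAs or of the 2 rRNAs was matched. One of these 6, mt-Atp8, lies inside the copied stretch between mt-Co2 and mt-Atp6, but only its last 43 bases, which it shares with mt-Atp6, lie in an annotated copy. They are the capitals below.
mt-Atp8: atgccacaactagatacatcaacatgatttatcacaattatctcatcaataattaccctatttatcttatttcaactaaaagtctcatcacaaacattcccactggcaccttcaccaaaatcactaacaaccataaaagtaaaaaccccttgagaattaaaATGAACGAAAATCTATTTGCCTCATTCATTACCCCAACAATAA

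The 13 mRNAs lay at 2 levels that did not overlap in any library. The genes outside the copied stretch, with mt-Co1 and mt-Nd4 that it covers in part, had median levels from 585 to 7388 CPM per kb of gene. The 6 genes inside it, mt-Co2, mt-Atp8, mt-Atp6, mt-Co3, mt-Nd3 and mt-Nd4l, had medians from 2.05 to 9.82 CPM per kb. Within a library the lowest of the first 7 stood 31.7 to 80.5 times above the highest of these 6. The counts of these 6 genes made up 0.0683% to 0.171% of the counts of the 13 mRNAs. Their copies were also low and partly above them. Gm28661 had 7.73 to 25.004 CPM per kb against 4.93 to 18.2 CPM per kb for mt-Co2, Gm10925 had 11.9 to 26.2 against 3.77 to 12.4 for mt-Atp6, and Gm28438 had 8.74 to 43.4 against 1.08 to 5.58 for mt-Nd3, without overlap in the last pair. How reads that match several positions were counted is not stated, so the levels of the 6 genes and of the copies are uncertain, and the part of that counting was not tested.

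**Figure D1:**
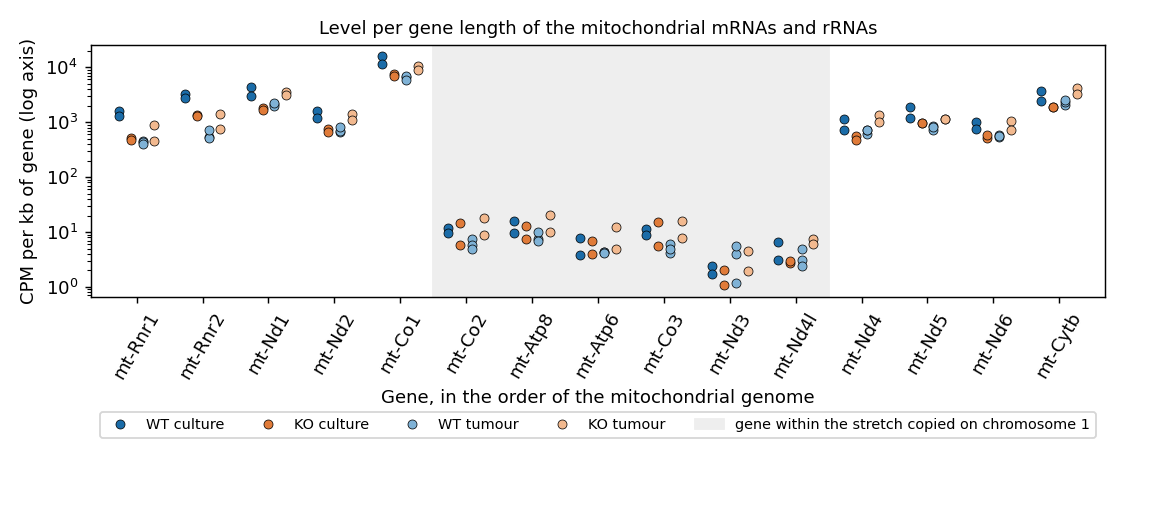
Level of the 13 mitochondrial mRNAs and 2 rRNAs in each library, in CPM per kb of gene on a log axis, in genome order; each point is 1 library, coloured by group, and grey marks the 6 genes inside the copied stretch. The 6 grey genes reach at most 20.2 CPM per kb, and the other genes lie at 393 CPM per kb or more.

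Outside the stretch mt-Co1 led in 9 of 9 libraries, with a median of 7388 CPM per kb and 51.0% to 63.4% of the counts of the 13 mRNAs. mt-Cytb, the cytochrome b of complex III, followed with 2421 CPM per kb and mt-Nd1, a membrane subunit of complex I, with 2239, but their order held in only 6 of 9 libraries. The large-subunit rRNA mt-Rnr2 had 1302 CPM per kb and exceeded mt-Nd5, at 976, in 5 of 9 libraries. The complex I genes mt-Nd2 (806) and mt-Nd4 (712) and the minus-strand gene mt-Nd6 (585) came next, then the small-subunit rRNA mt-Rnr1 (467 CPM per kb). How much of the rRNAs the poly(A) selection kept was not tested, so their rank is one of counts. mt-Nd6 and mt-Nd5 end against each other on opposite strands and share 14 bases, the capitals in the last 60 bases of each. Without a stated strand setting, reads there cannot be assigned to one of them.
mt-Nd5: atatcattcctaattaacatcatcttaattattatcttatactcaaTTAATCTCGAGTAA
mt-Nd6: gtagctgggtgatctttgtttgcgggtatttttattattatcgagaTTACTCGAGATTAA

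The share of all counts that came from the 37 genes differed among the groups, and the genotypes stood in opposite order in culture and in tumours. It was 4.72% and 3.39% in the WT cultures and 2.16% and 2.05% in the KO cultures. In tumours it was 1.90%, 2.00% and 1.93% in WT and 3.33% (tumour 1) and 2.69% (tumour 3) in KO. KO cultures thus lay below WT cultures and KO tumours above WT tumours, with no overlap in either setting. The means were 4.05% ± 0.93 (SD, n = 2) and 2.11% ± 0.083 (SD, n = 2) in culture, and 1.94% ± 0.052 (SD, n = 3) and 3.01% ± 0.45 (SD, n = 2) in tumours. With these group sizes an exact two-sided permutation test cannot go below p = 0.333 in culture or p = 0.2 in tumours, and it reached those values, with an adjusted p of 0.381 over the 16 share tests made.

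The 3 classes of RNA had the same order of groups within each setting but different sizes. The 13 mRNAs took 4.03% and 2.83% of counts in WT cultures, 1.89% and 1.79% in KO cultures, 1.77%, 1.87% and 1.77% in WT tumours, and 3.02% and 2.53% in KO tumours. The 2 rRNAs took 0.678% and 0.553%, then 0.267% and 0.2505%, then 0.130%, 0.1247% and 0.151%, then 0.309% and 0.164% in the same groups. The 22 tRNAs took 0.00803% and 0.00576%, then 0.00553% and 0.00409%, then 0.00234%, 0.00225% and 0.00246%, then 0.00471% and 0.00336%. Only for the rRNAs and tRNAs of KO tumours and KO cultures did 2 groups of the same line or setting overlap.

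**Figure D2:**
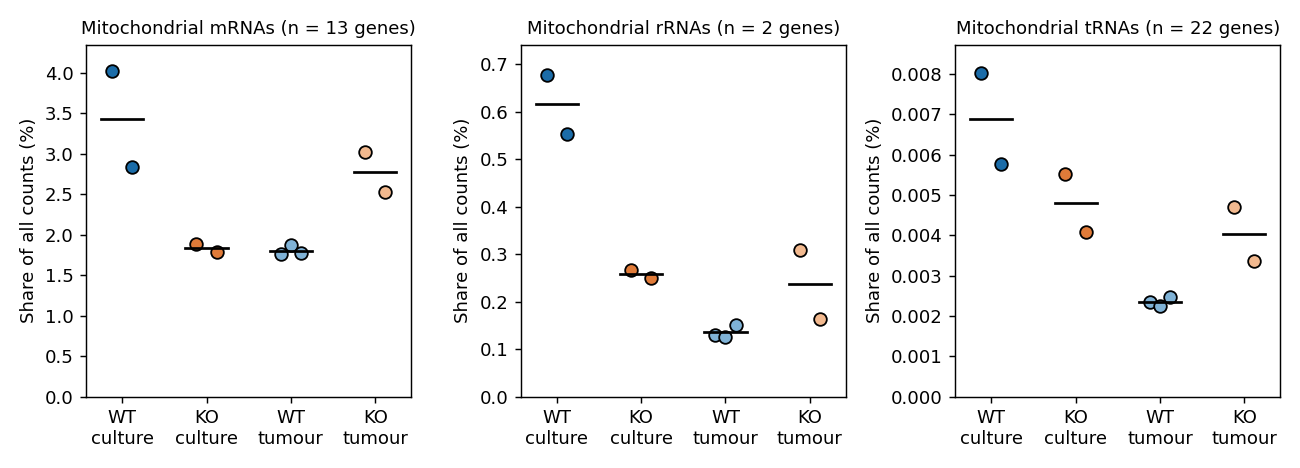
Share of all counts from the mitochondrial mRNAs, rRNAs and tRNAs, in percent (3 panels with axes of their own starting at 0); points are libraries and bars group means. KO cultures lie below WT cultures and KO tumours above WT tumours in each panel.

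In culture, KO against WT asks how the lines differ without host cells, and the mitochondrial transcripts were lower in KO. Of the 13 mRNAs 6 fell and none rose, and both rRNAs fell, in edgeR's quasi-likelihood test at an adjusted p under 0.05 over 13573 genes. Across all genes tested the test called 25.5%, with 16.2% lower and 9.27% higher. The median log2 fold change of the 13 mRNAs was -0.64, beside -0.00030 over all genes. KO lay below WT without overlap for 8 of the 13 mRNAs and both rRNAs, a pattern that 33.0% of all genes showed, while 26.8% lay above WT without overlap.

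mt-Rnr1 stood at 1539 and 1229 CPM in WT cultures and at 492 and 446 CPM in KO cultures, and fell by 1.54 on the log2 scale (SE 0.18, edgeR adjusted p = 6.05e-05). mt-Rnr2 stood at 5240 and 4303 CPM in WT and 2179 and 2059 CPM in KO, and fell by 1.15 (SE 0.21, edgeR adjusted p = 0.0014). Both KO libraries held less than the lower WT library for each rRNA. mt-Nd1 had 4115 and 2820 CPM in WT and 1742 and 1603 CPM in KO, a fall of 1.02 (SE 0.22, edgeR adjusted p = 0.00396). mt-Nd2, also of complex I, had 1681 and 1240 CPM in WT and 791 and 699 CPM in KO, a fall of 0.94 (edgeR adjusted p = 0.0031). mt-Co1 had 24681 and 17957 CPM in WT and 11415 and 10678 CPM in KO, a fall of 0.92 (SE 0.26, edgeR adjusted p = 0.0196). The groups were apart for all of these genes, and WT culture 1 was the highest library each time. mt-Nd4 fell by 0.83, mt-Cytb by 0.65 and mt-Nd6 by 0.64, while mt-Nd5, with a log2 fold change of -0.64, missed the threshold (edgeR adjusted p = 0.0575) and passed it in DESeq2 (adjusted p = 0.0134). None of the 6 genes inside the copied stretch passed, with log2 fold changes from -0.74 (mt-Nd4l) to 0.079 (mt-Co3).

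Of the 22 tRNA genes 7 had enough counts to be tested in culture. mt-Tl2, a leucine tRNA gene, fell by 2.00 (SE 0.395, edgeR adjusted p = 0.0025), from 2.54 and 2.99 CPM to 0.800 and 0.548 CPM. mt-Tp, the proline tRNA gene, fell by 0.72 (SE 0.20, edgeR adjusted p = 0.0168), from 59.6 and 41.4 CPM to 34.4 and 25.8 CPM. mt-Tn, the asparagine tRNA gene, was the one tested member whose KO libraries, at 14.4 and 9.54 CPM, both lay above the WT libraries at 8.57 and 7.54 CPM, and it was not called (log2 fold change 0.59, edgeR adjusted p = 0.0816). Without WT culture 1 the number of mitochondrial genes called lower was 6 in place of 10. The calls of mt-Rnr1, mt-Rnr2, mt-Nd1, mt-Nd2 and mt-Tl2 held without any one of the 4 libraries, and those of mt-Co1, mt-Nd4, mt-Cytb, mt-Nd6 and mt-Tp did not.

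**Figure D3:**
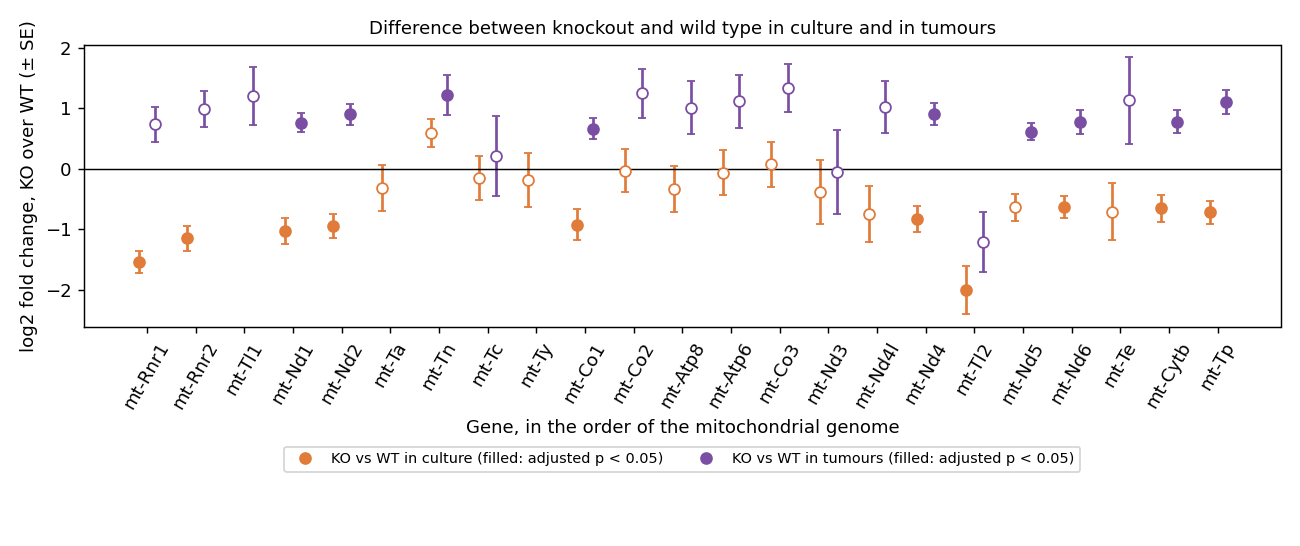
Log2 fold change of KO over WT (with SE) for each mitochondrial gene tested, in genome order, in culture (orange) and in tumours (purple); filled points passed the adjusted p threshold of 0.05. All filled orange points are below 0 and all filled purple points above 0.

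In tumours the same comparison, now between lines grown in a host, went the other way: 7 of the 13 mRNAs rose and none fell. Across the 16257 genes tested 19.7% were called, with 8.78% higher and 10.9% lower. The median log2 fold change of the 13 mRNAs was 0.90, beside -0.0056 over all genes. KO lay above WT without overlap for 12 of the 13 mRNAs, as it did for 21.2% of all genes, and 32.1% of all genes lay below WT without overlap.

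mt-Nd2 stood at 678, 726 and 836 CPM in WT tumours and at 1457 and 1152 CPM in KO tumours, and rose by 0.91 (SE 0.17, edgeR adjusted p = 0.016). mt-Nd4, another membrane subunit of complex I, stood at 836, 973 and 986 CPM in WT and 1849 and 1396 CPM in KO, and rose by 0.90 (SE 0.18, edgeR adjusted p = 0.0192). mt-Cytb had 2309, 2662 and 2950 CPM in WT and 4754 and 3698 CPM in KO, a rise of 0.78 (SE 0.19, edgeR adjusted p = 0.0337). KO tumour 1 was the higher KO library in all 3 cases, and KO tumour 3 also exceeded every WT tumour. mt-Nd1 rose by 0.77 (edgeR adjusted p = 0.017), from 2020, 1876 and 2143 CPM to 3434 and 2960 CPM. mt-Co1 rose by 0.67 (edgeR adjusted p = 0.0438), from 10246, 10597 and 9052 CPM to 16026 and 13558 CPM. mt-Nd6 rose by 0.77 and mt-Nd5 by 0.61 (edgeR adjusted p = 0.0404 and 0.0266). The 6 genes inside the copied stretch were not called by edgeR, at log2 fold changes from -0.053 (mt-Nd3) to 1.34 (mt-Co3). DESeq2 called mt-Co2 and mt-Co3 higher (adjusted p = 0.0257 and 0.0139), and without KO tumour 3 edgeR called mt-Co2, mt-Co3, mt-Atp6 and mt-Atp8 (adjusted p = 0.0159, 0.0116, 0.0125 and 0.0418).

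The rRNAs were not called by edgeR in tumours. mt-Rnr1 had 436, 424 and 376 CPM in WT and 835 and 434 CPM in KO, so KO tumour 3 lay within the WT range (log2 fold change 0.73, SE 0.29, edgeR adjusted p = 0.122). mt-Rnr2 had 865, 824 and 1135 CPM in WT and 2254 and 1207 CPM in KO, without overlap (log2 fold change 0.99, SE 0.30, edgeR adjusted p = 0.0608), and DESeq2 called it (adjusted p = 0.00701). Of the 6 tRNA genes tested, mt-Tp rose by 1.10 (SE 0.19, edgeR adjusted p = 0.0123), from 14.3, 13.9 and 14.98 CPM to 32.7 and 25.03 CPM, and mt-Tn rose by 1.22 (SE 0.34, edgeR adjusted p = 0.0472), from 2.61, 3.59 and 2.56 CPM to 7.48 and 5.23 CPM. mt-Tl2 was the one tested member lower in both KO tumours, at 1.68 and 1.17 CPM against 4.23, 1.88 and 4.55 CPM, and it was not called (log2 fold change -1.21, edgeR adjusted p = 0.129).

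The number of mitochondrial genes called in tumours depended on single libraries, and so did the number of all genes called. It was 9 with all 5 tumours, beside 3206 of all genes. Leaving out WT tumour 1 or WT tumour 2 gave 0, beside 1258 or 1171 of all genes. Leaving out WT tumour 3 gave 4, beside 2732. With a lone KO library, the median log2 fold change of the mitochondrial genes tested was 0.525 without KO tumour 1 and 1.19 without KO tumour 3 (0.905 with all). With WT tumour 1 or 2 left out, 12 or 13 members had an unadjusted p under 0.05 in edgeR, and the fold changes of the called genes kept their sign in each of the 5 fits. mt-Nd1, for example, ranged from 0.595 to 0.94 and mt-Nd2 had 0.82 and 0.88 without WT tumour 1 and 2.

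Summed markers of carcinoma epithelium, of fibroblasts and pericytes, and of adipocytes were apart between KO and WT tumours. The sums for endothelial, skeletal muscle, leukocyte, erythroid and dissociation genes overlapped. Of all genes 8.78% were called higher and 10.9% lower in this comparison. The summed level of 7 carcinoma epithelium markers (Epcam, Cdh1, Muc1 and keratins) was 6022 to 7437 CPM in WT tumours and 9449 to 11526 CPM in KO tumours, with 3 of 7 called higher and 1, Epcam, lower. Epcam was also lower in KO cultures (log2 fold change -6.53), so the lines differ in this marker without a host. The 10 fibroblast and pericyte markers summed to 1335 to 3705 CPM in WT and 540 to 784 CPM in KO, with 4 of 10 lower, and the 7 endothelial markers to 76.9 to 174 CPM and 36.5 to 79.9 CPM, with 1 of 7 lower. The 8 skeletal muscle markers summed to 32.1 to 160 CPM and 15.99 to 61.1 CPM (1 of 8 lower). Of 13 leukocyte markers 10 were tested and none was called in edgeR (2 at an unadjusted p under 0.05, and 1 higher by DESeq2), at sums of 98.4 to 145 CPM and 99.98 to 203 CPM. Adipocyte markers summed to 20.6 to 25.4 CPM in WT and 61.7 to 78.5 CPM in KO (1 of 2 tested higher, with Plin1, Lep and Ucp1 at 0 in KO). In cultures the adipocyte markers summed to 24.9 to 28.4 CPM in WT and 51.4 to 58.8 CPM in KO (2 of 2 tested higher). The lines thus differ in this sum without a host. Erythroid markers summed to 3.36 to 13.1 CPM in WT tumours and 7.38 to 41.9 CPM in KO tumours. Genes of the response to dissociation summed to 2421 to 2815 CPM in WT and 2657 to 2943 CPM in KO, with 2 of 11 lower. With 1 tumour left out, 1 to 4 of the carcinoma markers were called higher, and 0 to 4 of the fibroblast and pericyte markers lower and 0 to 1 higher. The part of cell composition in the mitochondrial differences was not tested, and in bulk tumours fewer cells of a type and less RNA per cell cannot be told apart. In culture the fibroblast markers summed to at most 2.37 CPM and the endothelial ones to at most 0.535 CPM.

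The difference between the KO and WT lines was compared between the settings, as that in tumours minus that in culture. It was tested in 1 fit of all 9 libraries, in which setting and batch cannot be told apart. Of 16793 genes tested 5.69% were called, with 4.15% higher and 1.54% lower. Of the mitochondrial genes 7 of 13 mRNAs, both rRNAs and mt-Tp were called higher and none lower, and all 13 mRNAs had a difference above 0, with a median of 1.37 on the log2 scale beside 0.053 over all genes. The rRNAs led, with 2.24 for mt-Rnr1 (SE 0.36, edgeR adjusted p = 0.00575) and 2.11 for mt-Rnr2 (SE 0.37, edgeR adjusted p = 0.00909). mt-Nd2 followed with 1.82 (SE 0.25, edgeR adjusted p = 0.0035), then mt-Tp with 1.80 (SE 0.27, edgeR adjusted p = 0.00468) and mt-Nd1 with 1.76 (SE 0.25, edgeR adjusted p = 0.0036). The count of members called higher was 6 without KO culture 1. mt-Rnr1, mt-Nd1, mt-Nd2, mt-Co1, mt-Nd4 and mt-Tp kept their call without any one of the 9 libraries, and mt-Rnr2, mt-Nd5, mt-Nd6 and mt-Cytb lost it without at least one.

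Between culture and tumour the lines moved differently. In WT, 10 of the 13 mRNAs, both rRNAs and 5 of the 8 tRNAs tested were lower in tumours and none was higher. Of all genes 65.7% were called, with 29.6% lower and 36.1% higher. Without WT tumour 1 or without WT tumour 2, 16 mitochondrial genes were lower in place of 17. mt-Rnr2 fell by 2.81 (SE 0.25, edgeR adjusted p = 7.15e-06), mt-Rnr1 fell by 2.22 (SE 0.24, edgeR adjusted p = 2.09e-05) and mt-Co1 fell by 1.56 (SE 0.18, edgeR adjusted p = 3.02e-05). In KO, mt-Nd4 (log2 fold change 0.76), mt-Cytb (0.54) and mt-Nd1 (0.51) were higher in tumours. Lower there were mt-Rnr2 (-0.71), mt-Tn (-1.33) and the alanine tRNA gene mt-Ta (-2.87). Across all genes 59.3% were called in KO, with 32.9% higher and 26.4% lower. Apart from fits with 1 library left out, the calls of mt-Nd4, mt-Tn and mt-Ta held under every alternative. Those of mt-Cytb, mt-Nd1 and mt-Rnr2 were lost in a fit of the KO libraries alone (edgeR adjusted p = 0.0586, 0.0524 and 0.0846). With 1 library left out, mt-Rnr2 ran from -1.28 to -0.303 and mt-Cytb from 0.303 to 0.743. Scaling to library totals in place of TMM moved the median of all genes from 0.17 to 0.64 in WT and from 0.17 to 0.60 in KO, and left 11 mitochondrial genes lower in WT and 5 higher in KO. Other RNA moved with these contrasts. The nuclear-retained RNAs Malat1 and Neat1 were both higher in tumours in each line, with sums of 510 to 1031 CPM in cultures and 2103 to 3407 CPM in tumours, and medians of 1.76 in WT and 1.56 in KO on the log2 scale. Leukocyte markers summed to 6.48 to 10.02 CPM in cultures and 98.4 to 203 CPM in tumours, beside the fibroblast and endothelial sums given above. Their part in the lower mitochondrial levels was not tested. These contrasts share their libraries with the genotype contrasts above and are no independent support for them.

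The balance between the counts of the classes also differed between settings. The libraries are of poly(A) RNA, and how much rRNA that selection kept was not tested. The ratios below are therefore ratios of counts and not of RNA amounts. The rRNAs gave 16.8 and 19.5 counts per 100 mRNA counts in WT cultures, 14.1 and 13.98 in KO cultures, 7.36, 6.66 and 8.51 in WT tumours, and 10.2 and 6.50 in KO tumours. Every culture was above every tumour. The ratio of mt-Rnr2 to mt-Rnr1 was 3.40 and 3.50 in WT cultures, 4.43 and 4.62 in KO cultures, 1.98, 1.94 and 3.02 in WT tumours, and 2.70 and 2.78 in KO tumours. KO was above WT in culture, and in tumours KO lay between WT tumour 3 and the other WT tumours.

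The tRNA genes were counted at very low levels and unevenly, with 6992 counts over the 9 libraries together. The 8 minus-strand genes held 6442 of these counts, or 92.1%, and the 14 plus-strand genes 550. mt-Tp alone had 4741 counts and mt-Tn 1133, and together they made up 71.2% to 89.9% of the tRNA counts of a library. mt-Tl2 had 368 counts, the most of any plus-strand tRNA gene, and mt-Tf, mt-Tv, mt-Td and mt-Tk, for phenylalanine, valine, aspartate and lysine, had none in any library. mt-Tf and mt-Tv flank mt-Rnr1, which had 111382 counts. The sequences of the leading minus-strand pair, of mt-Tl2 and of one uncounted gene are shown for comparison of length, in the sense of each gene. The tRNA genes are 59 to 75 bases long, and a read longer than that extends into the neighbouring genes. How such reads were assigned is not stated.
mt-Tp: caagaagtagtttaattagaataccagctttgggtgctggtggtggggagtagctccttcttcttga
mt-Tn: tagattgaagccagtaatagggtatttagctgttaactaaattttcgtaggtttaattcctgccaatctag
mt-Tl2: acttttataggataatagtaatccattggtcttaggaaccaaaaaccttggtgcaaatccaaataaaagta
mt-Tf: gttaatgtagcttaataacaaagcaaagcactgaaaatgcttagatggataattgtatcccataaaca

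**Figure D4:**
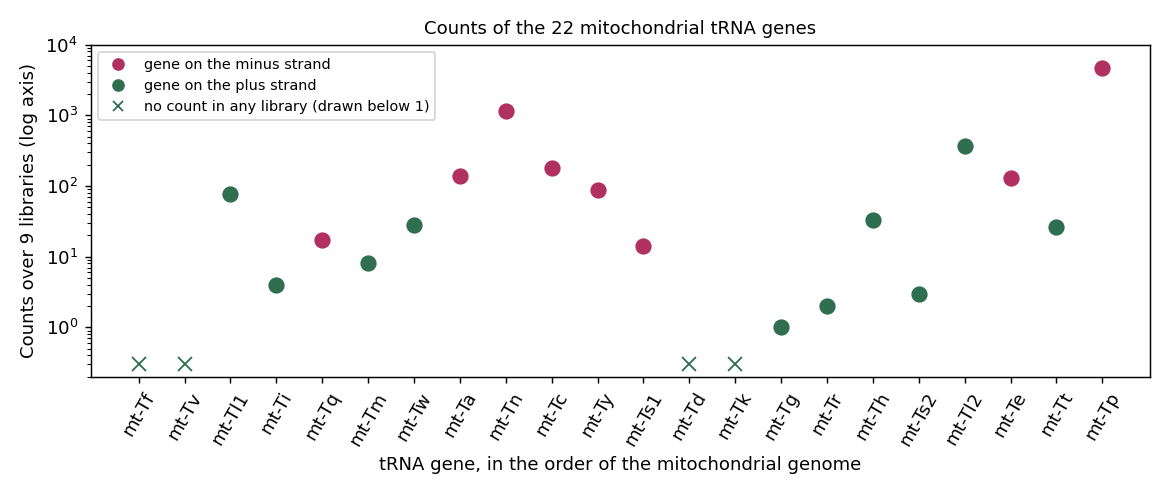
Counts of each of the 22 tRNA genes summed over 9 libraries, on a log axis in genome order, with minus-strand genes in red and plus-strand genes in green; crosses are the 4 genes without a count. mt-Tp and mt-Tn, both on the minus strand, stand above all others.

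Nuclear subunits of the same complexes were tested in the same fits, in which 8.78% of all genes were called higher in KO tumours. In tumours 22 of 37 subunits of complex I rose, with 3 of 4 of complex II, 6 of 9 of complex III, 9 of 14 tested of complex IV and 10 of 17 of the ATP synthase, and none fell. The medians per complex were 0.75, 0.89, 0.88, 0.92 and 0.94 on the log2 scale. Of complex IV, Cox8a rose by 1.18 (SE 0.14, edgeR adjusted p = 0.00395) and Cox7b by 1.34 (SE 0.19, edgeR adjusted p = 0.0068). Of complex I, Ndufv2, of the NADH-binding module, rose by 1.12 and Ndufa13, an accessory subunit, by 1.48. Complex II, which has no mitochondrially encoded subunit, was among them. Over all 82 nuclear subunits (Ndufa4 is in the lists of complex I and IV and counted once) 49 of 80 tested rose. Leaving out WT tumour 2 gave 11, WT tumour 1 gave 14, KO tumour 1 gave 24 and KO tumour 3 gave 72, and none fell in any of these fits.

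In culture 16 of 79 nuclear subunits tested fell and 1, Ndufa13, rose, where 16.2% of all genes were called lower and 9.27% higher. Of complex IV 6 of 13 tested fell, with Cox7a1 lower by 1.95 (log2 fold change -1.95, edgeR adjusted p = 0.0032) and Cox6c and Cox7a2 at -0.75 and -0.86. Of complex III 3 of 9 fell, of the ATP synthase 4 of 17 and of complex I 3 of 37. The count of 16 depended on the library left out. The median log2 fold change of the nuclear subunits was -0.16 with all cultures. It ran from -0.37 without WT culture 1 to 0.034 without WT culture 2, so its sign was not the same in every fit. For the difference between the settings 29 of 81 were called higher and none lower, among them 11 of 15 of complex IV. Of all genes 4.15% were called higher and 1.54% lower in this contrast. The 29 fell to 7 without WT tumour 1 or 2. The number called also depended on the library left out of a group of 2. The median log2 difference in those fits ran from 0.74 without KO tumour 1 to 1.19 without KO tumour 3 (0.95 with all).

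Summed over a library, the 82 nuclear subunits had 11814 and 13785 CPM in WT cultures, 10799 and 12392 CPM in KO cultures, 6336, 6384 and 7236 CPM in WT tumours, and 12332 and 9045 CPM in KO tumours. The genotypes overlapped in culture and were apart in tumours. The summed 13 mitochondrial mRNAs were 3.41 and 2.06 times that sum in WT cultures and 1.75 and 1.45 times in KO cultures. In tumours the ratio was 2.79, 2.93 and 2.45 in WT and 2.45 and 2.79 in KO, so there the mitochondrial and nuclear sums differed between genotypes by about the same factor.

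Of 20 nuclear genes for transcription and maintenance of mitochondrial DNA none passed in culture in edgeR (2 at an unadjusted p under 0.05, 0 by DESeq2), and in tumours 1 of 20 fell, the DNA ligase gene Lig3 (log2 fold change -0.69, edgeR adjusted p = 0.0245). Tfam, which packages mitochondrial DNA and starts its transcription, had log2 fold changes of 0.064 in culture and -0.013 in tumours, and the polymerase gene Polrmt 0.26 and 0.18. The initiation factor gene Tfb2m had 0.44 and -0.11, and none of the 3 was called. Of 33 genes for processing and decay of mitochondrial RNA 7 rose in culture, among them the RNA-binding protein gene Grsf1 (0.70), the poly(A) polymerase gene Mtpap (0.70) and Fastkd1 (0.75), and none fell, where 9.27% of all genes were called higher. In tumours, with 8.78% of all genes called higher, 5 of these 33 rose, among them Fastk (0.53) and Fastkd1 (0.75). Lrpprc, which stabilises mitochondrial mRNAs, was not called in either setting, at 0.38 and 0.47. These counts were 1 to 3 in culture and 0 to 4 in tumours when a library was left out.

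**Figure D5:**
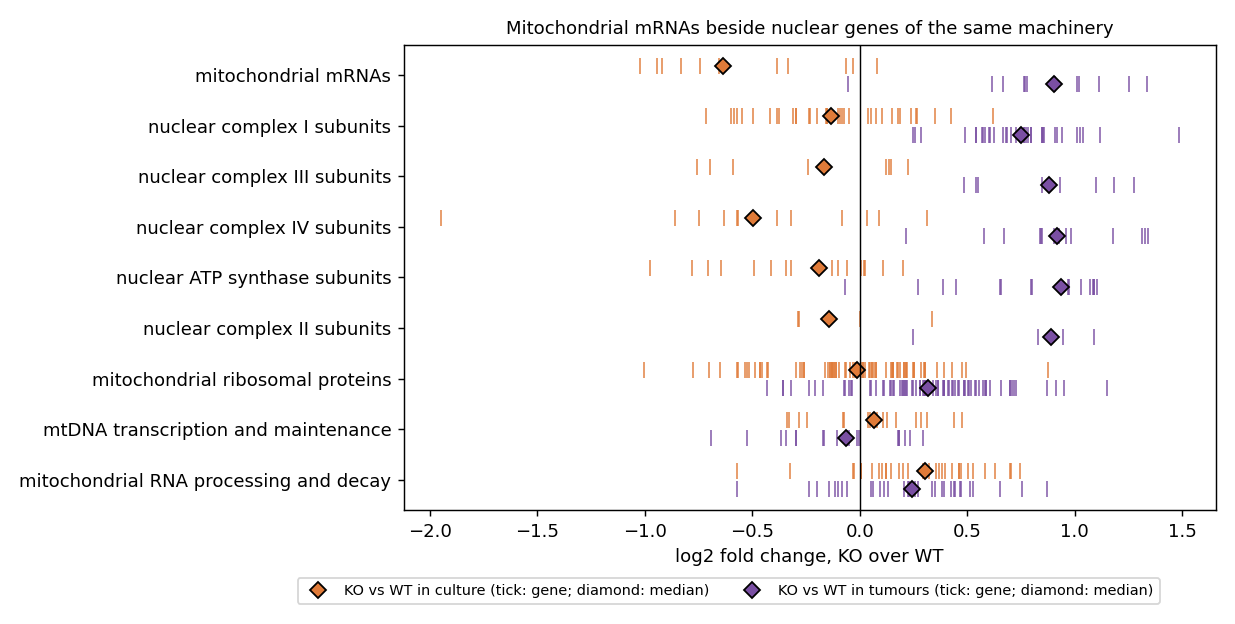
Log2 fold change of KO over WT for the mitochondrial mRNAs and for lists of nuclear genes, in culture (orange) and tumours (purple); ticks are genes and diamonds list medians. The mitochondrial mRNAs have medians of -0.64 and 0.90, and the subunit lists lie between 0.75 and 0.94 in tumours.

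Further mitochondrial lists were counted in the same fits. Of 79 mitochondrial ribosomal protein genes 6 fell and 2 rose in culture, with Mrpl10 at -0.65 and Mrps31 at 0.87, where 16.2% of all genes were called lower and 9.27% higher. In tumours 10 rose, with Mrps35 at 0.95, where 8.78% of all genes were called higher. Of 20 genes of the citrate cycle and mitochondrial membrane 10 rose in tumours, among them Idh3b (0.96) and Suclg2 (0.77), and 1 rose in culture. When a library was left out, the tumour counts ranged from 1 to 24 and from 3 to 14, the 6 ribosomal protein genes lower in culture became 1 to 14, and the citrate cycle gene called in culture was called in 0 such fits. Of 9 tested biogenesis regulators, Ppargc1b and Esrra, a coactivator and a nuclear receptor of mitochondrial gene programmes, rose in KO tumours by 1.77 (SE 0.20, edgeR adjusted p = 0.0036) and 1.15 (SE 0.17, edgeR adjusted p = 0.0079). Ppargc1b stood at 7.88, 7.71 and 6.24 CPM in WT tumours and 21.96 and 24.7 CPM in KO tumours. Both calls held without any one tumour. Ppargc1a had a log2 fold change of -4.53 in tumours and was not called by edgeR (adjusted p = 0.0679). DESeq2 called it lower (adjusted p = 0.0107), and limma-voom did not call it (adjusted p = 0.145). Of the 9 regulators DESeq2 called 2 higher and 2 lower in tumours. Their median log2 fold change there was -0.18 in edgeR, so the list did not rise as a whole. In culture Ppargc1b rose by 0.97 (edgeR adjusted p = 0.0485), a call lost in DESeq2 (adjusted p = 0.0790), without WT culture 2 (edgeR adjusted p = 0.341) and without KO culture 1 (edgeR adjusted p = 0.176). Ppargc1a fell by 3.65 (SE 0.61, edgeR adjusted p = 0.00079), from 2.88 and 1.87 CPM to 0.0471 and 0.329 CPM.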

How the data were processed

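For 4 cultures and 5 tumours the authors deposited raw read counts for each Ensembl gene. Alignment and counting used STAR 2.5.2b and featureCounts from Subread 1.5.2 after trimming with fastp 0.23.1, per the submitters' processing notes, which name GRCm38 and also DESeq2. Duplicates were removed by molecular identifiers, per the labels' protocols. Read length, annotation release, strand setting and the handling of reads with more than one position: not given in the sources used here. GENCODE M21 gave symbols, positions and sequences, and names 49412 of 49671 genes.

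After filterByExpr (counts of at least 10, total of at least 15) and TMM scaling, edgeR 4.0.16 (R 4.3.3) was run with its quasi-likelihood test, adjusted after Benjamini-Hochberg over every gene tested, at a threshold of 0.05. An SE is the size of the log2 fold change over the root of its F value. The scripts were tested on simulated data. CPM are relative to library totals, without TMM. Shares were compared by exact two-sided permutation tests. Copies were found as exact matches of at least 30 bases in GENCODE M21 transcripts. Named are all 37 genes, Itga2, and, per nuclear list and comparison, at most 3 called members with the smallest p, plus Tfam, Polrmt, Tfb2m and Lrpprc. Epcam, Gm10222 and the markers named at 0 were chosen after their values were seen. The members and lists were chosen with earlier results of these data known. Alternatives were RLE or library-total scaling, scaling without the 37 genes, other filters, DESeq2 1.42.0, limma-voom (limma 3.58.1), other sets of libraries in the fit, a replicate block, and each library left out. KO tumour 3 has a column number absent from the labels and was assigned to its group only.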

Additional observations from a re-analysis of the deposited data

Results flagged for a closer look

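For 10 mitochondrial genes the difference between KO and WT was itself different in tumours and in culture, by the interaction test of edgeR over all 9 libraries (adjusted p under 0.05). In each the log2 fold change was negative in culture and positive in tumours. The difference was 2.24 for mt-Rnr1, 2.11 for mt-Rnr2, 1.82 for mt-Nd2, 1.80 for mt-Tp and 1.76 for mt-Nd1. It was 1.70 for mt-Nd4, 1.56 for mt-Co1, 1.40 for mt-Cytb, 1.37 for mt-Nd6 and 1.22 for mt-Nd5. Setting and batch are the same in the labels and cannot be told apart.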

How the results depend on the processing

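Across the alternatives no called mitochondrial gene changed sign. With 2 cultures or tumours in an arm, leaving one out leaves a lone library that is assumed to vary like the others. The cause of the shifts below was not tested. In culture, leaving out 1 library gave 6 to 11 mitochondrial genes lower, 0 to 1 higher and 2130 to 2985 of all genes called (10, 0 and 3461 with all). In tumours it gave 0 to 15 mitochondrial genes higher and 1171 to 4143 of all genes called (9 and 3206 with all). For the difference it gave 6 to 10 and 288 to 1651 (10 and 955 with all). Of the calls, 5 of 10 in culture, 0 of 9 in tumours and 6 of 10 in the difference held in every such fit. Under all other alternatives but the block in tumours given below, 8 of 10, 7 of 9 and 10 of 10 held. In culture, mt-Cytb (edgeR adjusted p = 0.053 with a CPM filter and 0.078 in 1 fit of all libraries) and mt-Nd6 (0.079 in that fit) were lost, and in tumours mt-Tn (0.0529 with library totals) and mt-Co1 (0.0515 with a CPM filter). DESeq2 called 11 lower in culture, 12 higher in tumours and 10 higher in the difference.

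Of all genes the difference was called for 1875 without a filter and 1625 by DESeq2. For tumour against culture in WT, library totals left 11 of 17 mitochondrial genes lower. In KO, 5 were higher with library totals, 1 in a fit of the KO libraries alone and 0 to 5 with 1 library left out (3 with all). In KO 5 were lower without a filter, 5 by limma-voom and 2 to 7 with 1 library left out (3 with all). The log2 ratio of the rRNA share of KO tumours over KO cultures was -0.2005, and ran from -0.657 without KO tumour 1 to 0.256 without KO tumour 3.

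Replicate numbers are shared by the culture groups, but the labels do not say that they mark a batch. The differences between replicates 1 and 2 of the 2 lines correlated over 13573 genes (r = 0.404). With the replicate block, 7587 genes were called in culture, 11 mitochondrial genes lower and 1 higher, with 39 of 79 nuclear subunits lower and 12 higher (16 and 1 without it), and with a block in culture only the difference had 1100 genes and 10 mitochondrial ones. A replicate block in WT gave 20 mitochondrial genes lower in tumours than in culture. In tumours the labels do not give the number of KO tumour 3, and a replicate block by column number, chosen after seeing the data, called 1428 genes, 1 mitochondrial gene (mt-Co1) and 8 of 80 nuclear subunits higher (3206, 9 and 49 without it). The other 8 mitochondrial genes had the same sign and edgeR adjusted p from 0.0554 to 0.107. No paired analysis was possible for KO tumours against KO cultures, because their columns share fewer than 2 numbers. At the depth here, tRNA genes with a few counts per library could not be tested.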

Other observations

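mt-Nd3 had 24, 7 and 38 counts in WT tumours 1, 2 and 3 and mt-Tl2 had 73, 32 and 89. The nuclear copy Gm28438 of mt-Nd3 had 246, 100 and 293 counts in the same tumours and the copy Gm10222 of mt-Nd4l 89, 35 and 95. WT tumour 2 was the lowest of the 3 in each of them, while mt-Co1 was highest in that tumour. WT tumours 1 and 2 were the replicate pair that differed least over all genes.

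Gm28438 fell in KO cultures by 1.25 on the log2 scale (edgeR adjusted p = 0.0023), while mt-Nd3, from which its sequence differs at 1 base, was not called (log2 fold change -0.38). In tumours Gm10925, the copy of mt-Atp6, rose by 1.07 (edgeR adjusted p = 0.0156), and mt-Atp6 had 1.11 and was not called. Of 6 copies tested as a list, which leaves out Gm10222, 1 fell in culture and 1 rose in tumours. Of all genes 16.2% were called lower in culture and 8.78% higher in tumours.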
